A study of Mus musculus with 9 samples.

Results

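The genes that present peptides on MHC class I and class II molecules were described in the brains of 9 mice. The 10 members were named individually and found by symbol among the 20731 genes of the count table, where all 10 are present. They are 6 genes of the class I pathway (H2-K1, H2-D1, B2m, Tap1, Tap2 and Tapbp) and 4 of the class II pathway (Cd74, H2-Aa, H2-Ab1 and H2-Eb1). The male C57BL/6J mice were 8 to 10 weeks old, 3 in each group, and all had a thrombosis of the superior sagittal sinus (cerebral venous sinus thrombosis, CVST), with RNA taken on day 2. Mice of the CVST group had the thrombosis without ligation. Those of the CVST_Ligation group also had their deep cervical lymph nodes ligated, a procedure used to impair the lymphatic drainage of the meninges. Those of the CVST_Ligation_4_PBA group had both procedures and 4-phenylbutyric acid (4-PBA), an inhibitor of endoplasmic reticulum stress. The methods place the 4-PBA dose of 100 mg/kg 30 min ahead of modelling, and the description of the data set places it later than ligation. Mice without thrombosis were not analysed here, so every group carries it.

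Class I molecules are carried by nearly all nucleated cells and display peptides made inside the cell to CD8 T cells. A transporter brings these peptides into the endoplasmic reticulum, where they are loaded onto a heavy chain that is held together by a shared light chain. Class II molecules are carried mainly by dendritic cells, B cells and macrophages and display peptides from engulfed material to CD4 T cells, and in the brain they are known chiefly from cells of the meninges, choroid plexus and perivascular spaces and from activated microglia.

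Counted reads per brain numbered 19392081 to 24166917 in the CVST group (median 22574739), 18835705 to 24157584 in the CVST_Ligation group (median 23358349) and 18100739 to 25091498 in the CVST_Ligation_4_PBA group (median 23623769). Levels are given as CPM, counts scaled to a common library size by the TMM method. At these depths 3 counts correspond to 0.114 to 0.163 CPM, a floor that covers counting error only. An exact two-sided permutation test of 3 brains against 3 cannot give a p under 0.1, so genes were tested in a model over all genes, edgeR's quasi-likelihood test, in which 14746 genes with enough counts were kept. All 10 members were among them. A gene is said to be called where its unadjusted p is below 0.05, and a value given alone beside a gene or a brain left out is a log2 fold change, in the latter case without that brain. Adjusted p-values are over all genes tested, by the Benjamini-Hochberg method.

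The libraries differed in markers of brain regions. The labels give the tissue as brain, and the description of the data set as cortex. Slc17a7, the vesicular glutamate transporter of cortical excitatory neurons and the most abundant of 8 cortical markers, stood at 1761, 1419.8 and 1974 CPM in the CVST brains, 1433, 419 and 1406 CPM in the CVST_Ligation brains and 519.8, 567 and 732 CPM in the CVST_Ligation_4_PBA brains. The CVST_Ligation_4_PBA brains and CVST_Ligation 2 were below all other brains. The 7 cerebellar markers, led per length by Pcp2, summed to 19.5, 17.4 and 26.5 CPM in the CVST brains, 38.1, 799 and 60.9 CPM in the CVST_Ligation brains and 47.6, 43.3 and 64.2 CPM in the CVST_Ligation_4_PBA brains, so that CVST_Ligation 2 stands apart. The gene said here to lead a list per length has the highest mean FPKM over the 9 libraries. The 8 midbrain dopamine markers, led per length by Ddc, summed to 18.7 ± 0.779 CPM in the CVST group, 192 ± 20.2 CPM in the CVST_Ligation group and 229 ± 2.18 CPM in the CVST_Ligation_4_PBA group (mean ± SD, n = 3). All 8 were called higher than in the CVST group in both ligated groups, where 5.47% of all genes were in CVST_Ligation and 8.07% in CVST_Ligation_4_PBA. The 8 hypothalamic markers, led per length by Pmch, summed to 297, 508 and 579 CPM in the CVST_Ligation_4_PBA brains, 18.7, 5.46 and 56.6 CPM in the CVST_Ligation brains and 13.3, 5.19 and 42.1 CPM in the CVST brains. The 6 thalamic markers, led per length by Prkcd, summed to 63.9, 70.6 and 76.002 CPM in the CVST brains, 157, 324 and 268 CPM in the CVST_Ligation brains and 515, 320.04 and 605 CPM in the CVST_Ligation_4_PBA brains. Each ligated brain was above each CVST brain, 5 of 6 were called higher in CVST_Ligation and 6 in CVST_Ligation_4_PBA than in CVST, and 3 were higher in CVST_Ligation_4_PBA than in CVST_Ligation, where 1.81% of all genes were. The last count was 1 without CVST_Ligation 1 or 3 or CVST_Ligation_4_PBA 1 or 3. The 8 striatal markers, led per length by Penk, summed to 1855, 1402 and 1029 CPM, then 214, 272 and 512 CPM, then 498, 1254 and 246 CPM in the same order. The CVST_Ligation brains were below the CVST brains, with 8 of 8 called lower, where 4.18% of all genes were. Of the 8, 2 were called lower in CVST_Ligation_4_PBA than in CVST, where 7.33% of all genes were, a count of 0 without CVST 1 or CVST_Ligation_4_PBA 1, 1 without CVST_Ligation_4_PBA 3, 5 without CVST 3 and 7 without CVST_Ligation_4_PBA 2. The part of these differences in the results on the members was not tested. Calls, medians, correlations and ranges within groups are given for the members also without CVST_Ligation 2 where it moves them.

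Levels of different genes are compared per length (FPKM). Of the lengths that the deposited counts and FPKM values imply, 74.8% are multiples of 3, as coding lengths are, so untranslated ends may be left out of many. On this scale B2m, the light chain that class I molecules share, was the most abundant member at 306 ± 43.8 FPKM in the CVST group, 262 ± 46.1 FPKM in the CVST_Ligation group and 313 ± 50.3 FPKM in the CVST_Ligation_4_PBA group (mean ± SD, n = 3). The classical heavy chains followed. H2-D1 stood at 54.97 ± 4.93, 60.6 ± 35.9 and 66.8 ± 17.7 FPKM in the same order of groups, and H2-K1 at 27.9 ± 3.14, 29.8 ± 11.3 and 36.8 ± 5.45 FPKM. Tapbp, which encodes the tapasin that holds empty class I molecules at the transporter, came next with 16.7 ± 3.30 FPKM in the CVST group. Of the transporter subunits, Tap2 stood at 6.47 ± 1.46 FPKM and Tap1 at 2.42 ± 0.850 FPKM in the CVST group. The class II members were also low in the CVST group, with 3.74 ± 1.81 FPKM for Cd74, 3.35 ± 1.90 FPKM for H2-Aa, 2.63 ± 0.759 FPKM for H2-Eb1 and 2.29 ± 1.43 FPKM for H2-Ab1. The means of these 4 genes and of Tap1 differed by less than the SD of Cd74 there. In the CVST_Ligation_4_PBA group Cd74 reached 14.6 ± 8.84 FPKM and H2-Aa 12.2 ± 7.56 FPKM, with H2-Eb1 at 8.16 ± 3.86 and H2-Ab1 at 7.29 ± 3.16 FPKM, beside 2.31 ± 1.04 FPKM for Tap1.

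**Figure D1:**
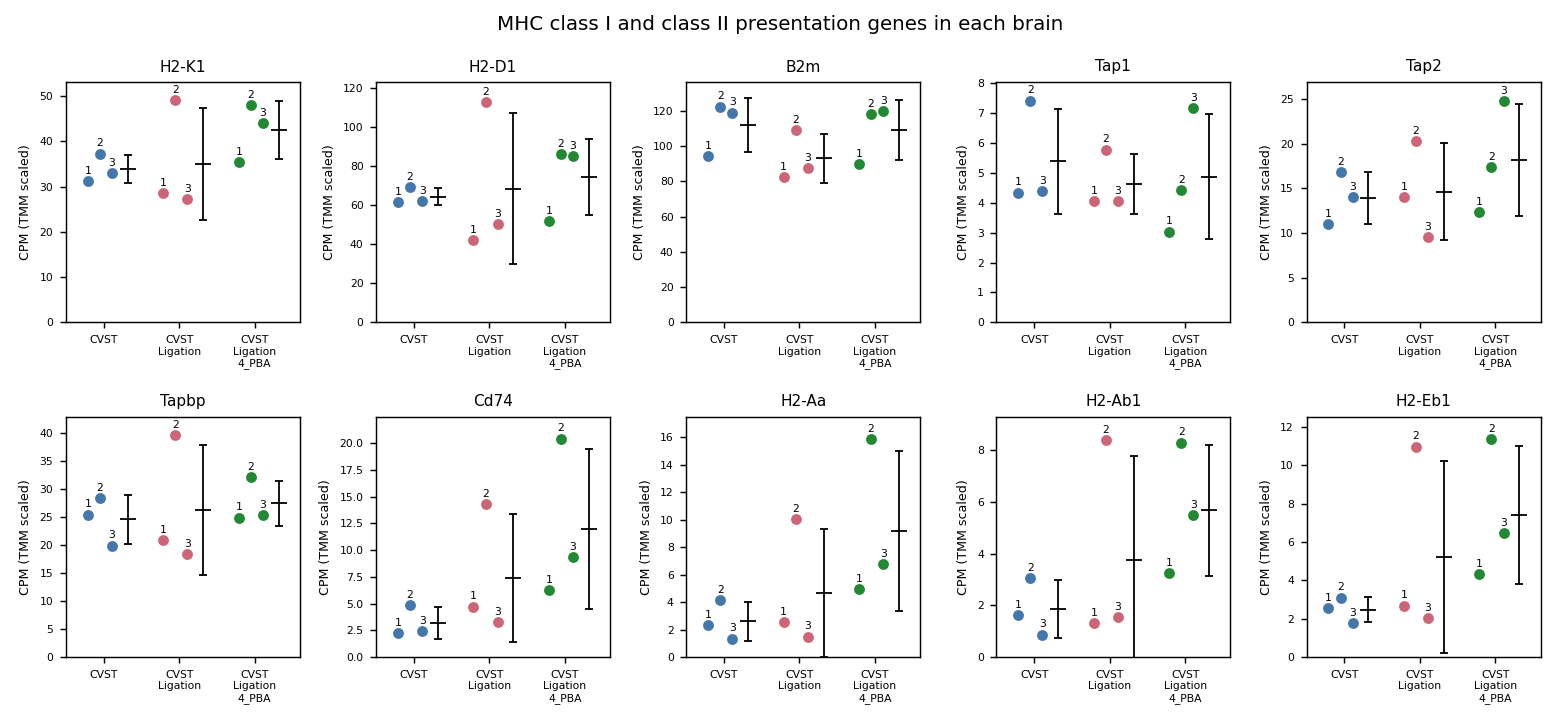
Level of each member in each brain by group, in CPM on an axis from 0; points are single brains numbered by replicate and bars are the mean with the SD over 3 brains, bars that would pass below 0 ending at the axis. For the 4 class II members every CVST_Ligation_4_PBA brain lies above every CVST brain, and CVST_Ligation 2 lies above the other CVST_Ligation brains. The share of all genes with such a separation was not counted.

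No class I member was called in any comparison. H2-K1 stood at 31.2, 37.3 and 32.98 CPM in the CVST brains, 28.6, 49.2 and 27.2 CPM in the CVST_Ligation brains and 35.4, 47.9 and 44.05 CPM in the CVST_Ligation_4_PBA brains. H2-D1 stood at 61.7, 69.3 and 62.1 CPM, then 42.1, 113 and 50.4 CPM, then 51.9, 86.4 and 85.05 CPM in the same order. In both genes CVST_Ligation 2 was the highest of the 9 brains, the other CVST_Ligation brains were lower than every CVST brain, and the groups overlapped. B2m stood at 94.3, 122 and 119 CPM, then 82.5, 109 and 87.5 CPM, then 89.8, 118 and 119.99 CPM. Its lowest and highest brains differed 1.48-fold, the smallest range of the 10 members, and the groups overlapped. Tap1 ranged from 3.03 to 7.41 CPM over the 9 brains, Tap2 from 9.54 to 24.8 CPM and Tapbp from 18.4 to 39.6 CPM, with the highest brain in a different group for each, and overlap between all groups. In bulk samples such as these, fewer cells of a type and less RNA per cell cannot be told apart.

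Between CVST_Ligation and CVST, edgeR called 0 of 6 class I members at an unadjusted p, where it called 9.64% of all genes, 5.47% higher and 4.18% lower. DESeq2 also called 0, and limma 0. The log2 fold changes ran from -0.27 for B2m to 0.09 for Tapbp with a median of 0.06, beside 0.00 over all genes. For B2m the 95% interval reached from -0.65 to 0.11 on the log2 scale, which leaves room for a level 0.638 times that of the CVST group. Between CVST_Ligation_4_PBA and CVST_Ligation, edgeR and DESeq2 each called 0 of 6, where edgeR called 3.23% of all genes, 1.81% higher and 1.42% lower. The median was 0.18, beside -0.02 over all genes. Between CVST_Ligation_4_PBA and CVST both tools called 0 of 6 again, where edgeR called 15.4% of all genes, 8.07% higher and 7.33% lower, and the median was 0.19 beside -0.01. That median was 0.09 without CVST 3, 0.06 without CVST_Ligation_4_PBA 2 and 0.10 without CVST_Ligation_4_PBA 3, and 0.29 without CVST 2 and 0.33 without CVST_Ligation_4_PBA 1. These comparisons share samples, so their values are given side by side only.

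The class I values between CVST_Ligation and the other groups depended on CVST_Ligation 2. Without it the median was -0.36 between CVST_Ligation and CVST. Between CVST_Ligation_4_PBA and CVST_Ligation it was then 0.56, and 3 of 6 class I members were called higher, H2-K1 (0.62), H2-D1 (0.70) and Tapbp (0.50). The same omission moved the number of all genes called in that comparison from 476 of 14746 to 1497 of 14950. With other single libraries left out, the class I median there fell as low as 0.04, H2-D1 as low as -0.12 and Tapbp as low as -0.13. Between CVST_Ligation and CVST the median then rose as high as 0.23.

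Each class II member was at a higher level in every CVST_Ligation_4_PBA brain than in any CVST brain. Cd74, the invariant chain that guards new class II molecules until they reach the endosome, stood at 2.25, 4.88 and 2.44 CPM in the CVST brains, 4.71, 14.3 and 3.25 CPM in the CVST_Ligation brains and 6.23, 20.4 and 9.34 CPM in the CVST_Ligation_4_PBA brains. The lowest CVST_Ligation_4_PBA brain was above the highest CVST brain, and the CVST_Ligation brains overlapped both groups. H2-Aa, the alpha chain of the I-A molecule, stood at 2.34, 4.17 and 1.36 CPM, then 2.56, 10.05 and 1.49 CPM, then 4.93, 15.9 and 6.78 CPM in the same order. H2-Ab1, its beta chain, stood at 1.61, 3.06 and 0.868 CPM, then 1.32, 8.40 and 1.54 CPM, then 3.25, 8.29 and 5.49 CPM. H2-Eb1, the beta chain of the I-E molecule, stood at 2.55, 3.10 and 1.79 CPM, then 2.69, 10.98 and 2.02 CPM, then 4.33, 11.4 and 6.48 CPM. In these 3 genes, too, the CVST and CVST_Ligation_4_PBA groups did not overlap while the CVST_Ligation group overlapped both. With 3 brains against 3, such a separation has a p of 0.1 in an exact 2-sided permutation test. The share of all genes whose groups do not overlap was not counted, so here and elsewhere the lack of overlap is a description only. CVST_Ligation_4_PBA 2 and CVST_Ligation 2 were the highest pair of brains for every class II member, and CVST 2 was the highest CVST brain for each. H2-Ea, the alpha chain of I-E, named after its values were seen, had 0 counts in every brain.

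Between CVST_Ligation_4_PBA and CVST, 3 of 4 class II members were called, all higher, where 8.07% of all genes were. The log2 fold change was 1.91 for Cd74 (SE 0.63), a 3.75-fold difference with a 95% interval of 1.40 to 10.04. It was 1.80 for H2-Aa (SE 0.74) and 1.57 for H2-Eb1 (SE 0.63). H2-Ab1, at 1.61 (SE 0.75), was not called. The median of the 4 was 1.71 beside -0.01 over all genes. None passed correction, since edgeR's quasi-likelihood test, after Benjamini-Hochberg adjustment, gave Cd74 an adjusted p of 0.198, H2-Eb1 0.275, H2-Aa 0.284 and H2-Ab1 0.345, while 0.122% of all genes passed. DESeq2, limma and a model of only these groups called all 4 at an unadjusted p, and DESeq2 gave Cd74 an adjusted p of 0.0347. Of 14746 genes DESeq2 called 2601 at an unadjusted p and 855 after adjustment, and limma called 2292 and 2331 unadjusted. The model of only these groups called 2487 of 14526. Over all alternatives of this comparison the smallest adjusted p of any member ran from 0.0347 to 0.503.

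These 3 calls were lost when certain single brains were left out. Without CVST 1 the count was 0 of 4, with log2 fold changes of 1.71 for Cd74, 1.73 for H2-Aa and 1.60 for H2-Eb1. Without CVST 3 it was 0 of 4, with 1.74, 1.48 and 1.37 in the same order. Without CVST_Ligation_4_PBA 2 it was also 0 of 4, with 1.29, 1.16 and 1.12. The median of the 4 was 1.65, 1.43 and 1.20 without these brains. H2-Ab1 was called as well, making 4 of 4, without CVST 2 (log2 fold change 2.20), CVST_Ligation 1 (1.62), CVST_Ligation 2 (1.62) or CVST_Ligation_4_PBA 1 (1.90).

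Between CVST_Ligation and CVST, edgeR called 0 of 4 class II members at an unadjusted p, where it called 9.64% of all genes, 5.47% higher. At an adjusted p below 0.05 edgeR called 0.0203% of all genes. DESeq2 called 1 of 4, Cd74 (1.21), where it called 1676 of 14746 genes, and limma called 0 of 4. The log2 fold changes ran from 0.83 for H2-Aa to 1.21 for Cd74 (SE 0.63), with a median of 1.03. Without CVST_Ligation 2 the median was -0.23, and the values of H2-Aa (-0.38), H2-Ab1 (-0.38) and H2-Eb1 (-0.08) changed sign, while Cd74 was at 0.32. Cd74 was called without CVST 2 (1.66) or CVST_Ligation 3 (1.57), and H2-Eb1 without CVST_Ligation 3 (1.45).

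Between CVST_Ligation_4_PBA and CVST_Ligation, edgeR, DESeq2 and limma each called 0 of 4 class II members at an unadjusted p, where edgeR called 3.23% of all genes. Over all genes edgeR called 0% at an adjusted p below 0.05, beside 476 genes at an unadjusted p, while DESeq2 called 22 genes after adjustment and limma 2 or 0. The log2 fold changes of the members ran from 0.51 for H2-Eb1 to 0.98 for H2-Aa, with a median of 0.65. With other single libraries left out the median fell as low as 0.15. Without CVST_Ligation 2 the median was 1.83, and all 4 were called higher in the CVST_Ligation_4_PBA group, Cd74 (1.60), H2-Aa (2.19), H2-Ab1 (2.00) and H2-Eb1 (1.66). In that fit 1497 of 14950 genes were called, 803 of them higher. Without that brain the CVST_Ligation level of Cd74 still lay between those of the other groups, and those of the other 3 class II members lay below both.

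**Figure D2:**
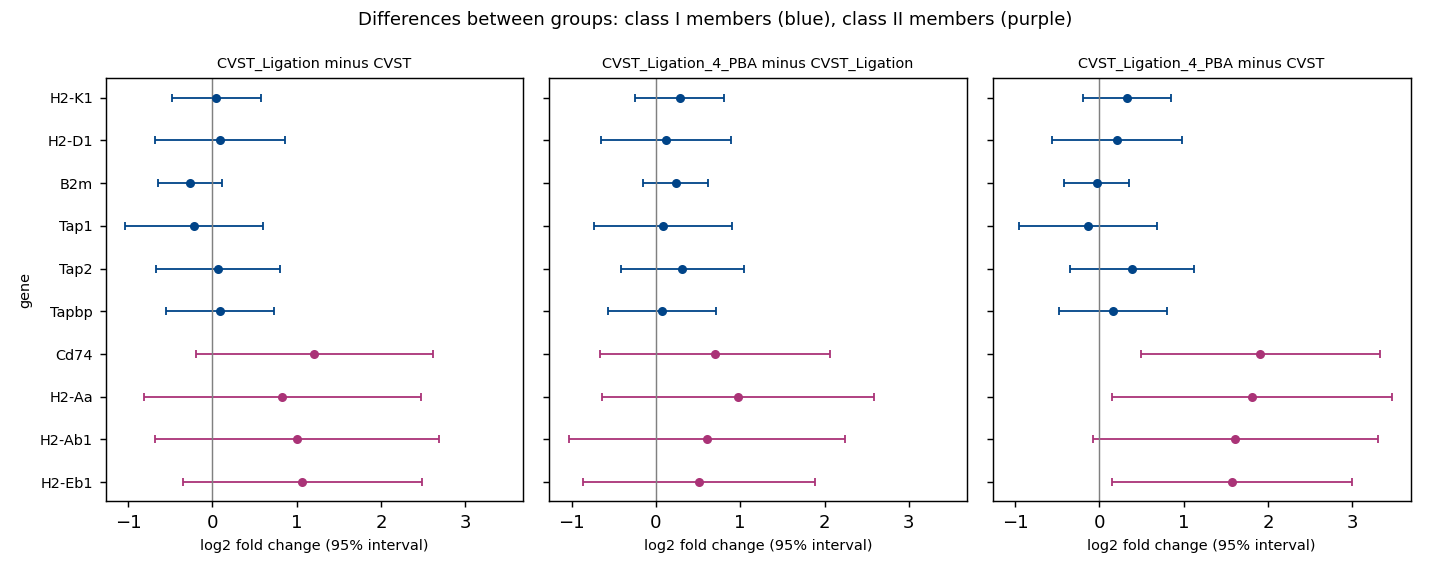
Log2 fold change of each member in the 3 comparisons with its 95% interval from edgeR; the line at 0 marks equal levels. The intervals of Cd74, H2-Aa and H2-Eb1 lie above 0 between CVST_Ligation_4_PBA and CVST, and the other intervals include 0.

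Within the CVST group the highest brain exceeded the lowest 1.73 to 3.53-fold over the class II members and 1.12 to 1.71-fold over the class I members. Within the CVST_Ligation_4_PBA group these ranges were 2.55 to 3.28-fold and 1.29 to 2.36-fold, and within the CVST_Ligation group 4.39 to 6.72-fold and 1.32 to 2.68-fold. The last were set by CVST_Ligation 2. Between the other CVST_Ligation brains the difference was 1.45-fold for Cd74, 1.71-fold for H2-Aa, 1.16-fold for H2-Ab1 and 1.33-fold for H2-Eb1, beside 1.001 to 1.47-fold over the class I members, so the classes overlapped. The biological coefficient of variation that edgeR fitted was 0.519 for Cd74, the lowest of the class II members, and 0.615 for H2-Ab1, the highest. Of all genes tested, 92.4% and 95.8% had a lower coefficient than these. Among class I members it ran from 0.172 for B2m to 0.331 for Tap1, and the median over all genes was 0.232. The class II members varied together. Their log2 CPM over the 9 libraries gave Pearson's r of 0.932 to 0.976 in 6 pairs, against 0.409 to 0.917 in 15 pairs of class I members and 0.254 to 0.920 in 24 pairs across the classes. Over the 8 libraries without CVST_Ligation 2 these ranges were 0.915 to 0.983, 0.341 to 0.890 and 0.166 to 0.892. These are descriptions over libraries that share their depth and tissue content between genes. Cd74 made up 25.7% to 41.8% of the summed class II CPM of a brain and H2-Ab1 11.7% to 20.1%, while that sum stood at 8.75, 15.2 and 6.46 CPM in the CVST brains, 11.3, 43.7 and 8.31 CPM in the CVST_Ligation brains and 18.7, 55.9 and 28.1 CPM in the CVST_Ligation_4_PBA brains.

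Genes with the most similar pattern were sought among 13695 other genes, by Pearson's r of log2 CPM over the 9 libraries with the mean z-score of the members of a class. For class II they were Serping1 (r = 0.980), which encodes the inhibitor of complement C1, Tns2 (0.972), Dusp16 (0.970), Esyt1 (0.968) and Cp (0.965), which encodes the copper carrier ceruloplasmin. Serping1 stood at 10.8, 18.8 and 8.35 CPM, then 11.98, 37.3 and 10.9 CPM, then 16.6, 44.6 and 35.9 CPM in the order CVST, CVST_Ligation and CVST_Ligation_4_PBA, with CVST_Ligation_4_PBA 2 and CVST_Ligation 2 again highest. Without CVST_Ligation 2, 3 of these 5 genes were among the first 5, and r was 0.977 for Serping1. For class I they were Lyz2 (r = 0.940), the lysozyme of myeloid cells, Cyp4f13 (0.937), Rinl (0.937), Gpr108 (0.937) and Ifit3 (0.935), an interferon-induced gene. Lyz2 stood at 6.50, 19.3 and 7.97 CPM, then 7.23, 34.01 and 5.05 CPM, then 11.4, 19.02 and 33.9 CPM, and CVST_Ligation 2 and CVST_Ligation_4_PBA 3 were its highest brains. Without CVST_Ligation 2, 0 of these 5 genes were among the first 5 for class I, and r was 0.921 for Lyz2.

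Of 13 genes that supply and load class I peptides, all tested, edgeR called 1 lower between CVST_Ligation and CVST, 1 higher between CVST_Ligation_4_PBA and CVST_Ligation and 1 higher between CVST_Ligation_4_PBA and CVST. Of all genes, 4.18%, 1.81% and 8.07% were called in these directions. Calr, a chaperone of the loading complex, was the most abundant per length at 755 ± 69.2 FPKM in the CVST group. Psmb9, a catalytic subunit of the immunoproteasome, stood at 1.997, 3.77 and 2.82 CPM in the CVST brains, 0.868, 1.44 and 1.49 CPM in the CVST_Ligation brains and 1.84, 2.57 and 2.63 CPM in the CVST_Ligation_4_PBA brains. Every CVST_Ligation brain was below every other brain. It was lower in CVST_Ligation than in CVST (log2 fold change -1.17, SE 0.37, edgeR adjusted p = 0.380), a call lost without CVST 2 (-0.92). It was higher in CVST_Ligation_4_PBA than in CVST_Ligation (log2 fold change 0.89, SE 0.37, edgeR adjusted p = 0.9998), a call lost without CVST 3 (0.89), CVST_Ligation 1 (0.69), CVST_Ligation_4_PBA 2 (0.82) or CVST_Ligation_4_PBA 3 (0.80). Exons of Psmb9 and Tap1 overlap over 212 bases on opposite strands, so both counts are uncertain there. Canx, the chaperone calnexin, was higher in CVST_Ligation_4_PBA than in CVST (log2 fold change 0.30, SE 0.12, edgeR adjusted p = 0.267), a call lost without CVST 2 (0.32), CVST 3 (0.20), CVST_Ligation_4_PBA 1 (0.30) or CVST_Ligation_4_PBA 2 (0.27).

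Of 20 nonclassical class I and related genes, 13 were tested. H2-T22 led the list per length and was not called, with 22.8 ± 3.90 FPKM in the CVST group, where H2-T23 was higher at 28.7 ± 4.06 FPKM. H2-T23, which encodes Qa-1, a ligand of inhibitory receptors on natural killer cells, stood at 36.6, 27.4 and 30.9 CPM in the CVST brains, 11.03, 26.2 and 19.3 CPM in the CVST_Ligation brains and 15.2, 15.7 and 19.8 CPM in the CVST_Ligation_4_PBA brains. Each of the 6 ligated brains was below each CVST brain. It was lower than in CVST in the CVST_Ligation_4_PBA group (log2 fold change -0.90, SE 0.29, edgeR adjusted p = 0.182) under every alternative run, and in the CVST_Ligation group (log2 fold change -0.75, SE 0.29, edgeR adjusted p = 0.440), a call lost without CVST 1 (-0.63), CVST_Ligation 1 (-0.48) or CVST_Ligation 3 (-0.77).

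H2-Q2, another gene of the nonclassical list, stood at 0.807, 0.177 and 0.488 CPM in the CVST brains, 0.827, 2.99 and 0.791 CPM in the CVST_Ligation brains and 3.90, 5.01 and 3.39 CPM in the CVST_Ligation_4_PBA brains. Each CVST_Ligation_4_PBA brain was above each of the other 6 brains. It was higher in CVST_Ligation_4_PBA than in CVST (log2 fold change 3.04, SE 0.67, edgeR adjusted p = 0.0807) in every alternative that gave a value. Between CVST_Ligation and CVST (log2 fold change 1.62, SE 0.66, edgeR adjusted p = 0.482) the call was lost without CVST_Ligation 2 (0.71), CVST 2 (1.22) or CVST 3 (1.59), with limma on log2(FPKM + 1) (0.67) and in a model of only these groups (1.62). Between CVST_Ligation_4_PBA and CVST_Ligation (log2 fold change 1.42, SE 0.61, edgeR adjusted p = 0.9998) it was lost without CVST 3 (1.43), CVST_Ligation 1 (1.14), CVST_Ligation 3 (1.11) or any CVST_Ligation_4_PBA brain (1.47, 1.25 and 1.55 without brains 1, 2 and 3). The remaining call of the list, Mr1, named after its values were seen, was higher in CVST_Ligation_4_PBA than in CVST (1.18). It was lost without any 1 brain other than CVST 2 and CVST_Ligation_4_PBA 3, with 0.75 and 1.32 without CVST 1 and 3, 1.19, 1.19 and 1.18 without the CVST_Ligation brains and 1.10 and 0.99 without CVST_Ligation_4_PBA 1 and 2, and in a model of only these groups (1.19). Of all genes, 9.64% were called between CVST_Ligation and CVST, 3.23% between CVST_Ligation_4_PBA and CVST_Ligation and 15.4% between CVST_Ligation_4_PBA and CVST. H2 genes resemble each other in sequence, and how reads with several matches were counted is not given in the sources used here, so counts of single H2 genes are uncertain. Of the 150-base windows of annotated H2-D1 transcripts, 1.35% also occur in transcripts of another gene, H2-Q1, and 0% of those of each other member do.

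Of 18 symbols listed for genes that serve class II molecules, 17 are in the count table and 15 were tested. Ctsb, an endosomal protease, was the most abundant per length at 884 ± 124 FPKM in the CVST group. Ctss, the protease that trims the invariant chain, stood at 160.3, 184 and 184 CPM in the CVST brains, 138, 148 and 152 CPM in the CVST_Ligation brains and 149.8, 142 and 172 CPM in the CVST_Ligation_4_PBA brains. Every CVST_Ligation brain was below every CVST brain. It was the only gene of the list that edgeR called, lower in CVST_Ligation than in CVST (log2 fold change -0.27, SE 0.12, edgeR adjusted p = 0.516), where 4.18% of all genes were lower. The call was lost without any 1 brain other than CVST 1, with log2 fold changes of -0.24 and -0.26 without CVST 2 and 3, -0.24, -0.28 and -0.30 without the CVST_Ligation brains and -0.27, -0.27 and -0.27 without the CVST_Ligation_4_PBA brains. It was also lost with scaling by total counts (-0.23), with every gene of at least 1 count (-0.27), with limma (-0.23 and -0.23) and in a model restricted to these groups (-0.27).

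Of 15 regulators of MHC transcription, all tested, edgeR called 0 between CVST_Ligation and CVST, 0 between CVST_Ligation_4_PBA and CVST_Ligation and 2 between CVST_Ligation_4_PBA and CVST, where it called 9.64%, 3.23% and 15.4% of all genes, so that the last count is near its background. Nfyb, a subunit of the factor that binds CCAAT, was the most abundant per length at 64.6 ± 17.6 FPKM in the CVST group. Nfkb1, a subunit of NF-kappa B, was higher (log2 fold change 0.48, SE 0.17, edgeR adjusted p = 0.218), a call lost without CVST 3 (0.39) or CVST_Ligation_4_PBA 3 (0.41). Irf2, an interferon regulatory factor, was lower (log2 fold change -0.39, SE 0.14, edgeR adjusted p = 0.222), a call lost without CVST 2 (-0.33) or CVST_Ligation_4_PBA 1 (-0.30). Ciita, the master regulator of class II genes, is named after its values were seen and stood at 1.78, 2.48 and 2.88 CPM in the CVST brains, 2.03, 2.32 and 1.58 CPM in the CVST_Ligation brains and 2.44, 1.68 and 1.52 CPM in the CVST_Ligation_4_PBA brains. Its groups overlapped, and the brains highest for class II were not its highest.

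Of 46 symbols listed for interferon response genes, 45 are in the count table and 41 were tested. Ifitm3, an antiviral membrane protein, was the most abundant per length at 131 ± 30.5 FPKM in the CVST group. Between CVST_Ligation and CVST edgeR called 1 gene lower and 0 higher, where 4.18% of all genes were lower and 5.47% higher. This was Gbp3, a guanylate-binding protein (log2 fold change -0.70, SE 0.31, edgeR adjusted p = 0.516), and the call was lost without any 1 brain other than CVST 3 and CVST_Ligation 2, with log2 fold changes of -0.78 and -0.28 without CVST 1 and 2, -0.61 and -0.68 without CVST_Ligation 1 and 3, and -0.70, -0.70 and -0.70 without the CVST_Ligation_4_PBA brains. Scaling by total counts (-0.66), limma (-0.47 and -0.55) and a model restricted to these groups (-0.69) ended the call as well.

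Of the 41 interferon response genes tested, 3 were called higher and 0 lower between CVST_Ligation_4_PBA and CVST_Ligation, where 1.81% of all genes were higher and 1.42% lower, with a list median of 0.38 beside -0.02 over all genes. The count higher was 10 without CVST_Ligation 2, 7 without CVST_Ligation_4_PBA 1 and 5 with every gene of at least 1 count. Iigp1, an interferon-inducible GTPase, stood at 1.10, 1.51 and 0.868 CPM in the CVST brains, 0.785, 0.876 and 0.747 CPM in the CVST_Ligation brains and 2.17, 2.02 and 2.36 CPM in the CVST_Ligation_4_PBA brains. Every CVST_Ligation_4_PBA brain was above every other brain (log2 fold change 1.44, SE 0.36, edgeR adjusted p = 0.9998). Ifi27, an interferon-induced protein, stood at 40.2, 59.3 and 48.1 CPM in the CVST brains, 44.2, 47.3 and 37.7 CPM in the CVST_Ligation brains and 55.97, 68.8 and 63.8 CPM in the CVST_Ligation_4_PBA brains. CVST 2 was above CVST_Ligation_4_PBA 1, while the ligated groups did not overlap (log2 fold change 0.55, SE 0.17, edgeR adjusted p = 0.9998). Both genes were called between the ligated groups in every alternative run. The other gene, Ifi35 (0.81), is named after its values were seen, and its call was lost without CVST_Ligation 1 (0.76), CVST_Ligation 3 (0.75), CVST_Ligation_4_PBA 2 (0.73) or CVST_Ligation_4_PBA 3 (0.59). Of the 41 genes edgeR called 1 higher in CVST_Ligation_4_PBA than in CVST, Iigp1 (log2 fold change 0.91, SE 0.35, edgeR adjusted p = 0.254), and 0 lower, where 8.07% of all genes were higher and 7.33% lower. The call was lost without CVST 1 (0.88), CVST 3 (0.72), CVST_Ligation_4_PBA 1 (0.93) or CVST_Ligation_4_PBA 3 (0.84). Ifng, the gene of interferon gamma, also named after its values were seen, had 0 counts in every brain.

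Markers of cells that can carry class II molecules are given beside these results, and their part in them was not tested. The 19 microglial markers summed to 1335, 1522 and 1416 CPM in the CVST brains, 1078, 1052 and 996 CPM in the CVST_Ligation brains and 989, 963 and 1291 CPM in the CVST_Ligation_4_PBA brains. All 6 ligated brains were below all CVST brains. Between CVST_Ligation and CVST, 11 of 19 were called lower and 0 higher, between CVST_Ligation_4_PBA and CVST, 8 lower and 0 higher, and between CVST_Ligation_4_PBA and CVST_Ligation edgeR called 0. Of all genes, 4.18% and 7.33% were called lower in the former comparisons and 3.23% either way in the last. The count of 11 was 5 without CVST 2, 6 without CVST_Ligation 2, 5 without CVST_Ligation 3 and 6 with total counts as scaling or with limma. The count of 8 was 4 without CVST 2, 3 without CVST_Ligation_4_PBA 1 and 3 without CVST_Ligation_4_PBA 2. C1qc, a chain of complement C1q, stood at 89.2, 116 and 118 CPM in the CVST brains, 64.8, 64.6 and 65.1 CPM in the CVST_Ligation brains and 62.3, 58.3 and 88.6 CPM in the CVST_Ligation_4_PBA brains. It was lower in both ligated groups than in CVST (log2 fold change -0.73, SE 0.18, edgeR adjusted p = 0.288 in CVST_Ligation and log2 fold change -0.63, SE 0.18, edgeR adjusted p = 0.144 in CVST_Ligation_4_PBA) in every alternative run. Between CVST_Ligation_4_PBA and CVST, the called microglial markers were lower and the called class II members higher. The 10 markers of border-associated macrophages, led per length by Pf4, summed to 26.4, 59.1 and 28.4 CPM, then 28.6, 44.9 and 14.4 CPM, then 28.4, 38.2 and 54.1 CPM in the order CVST, CVST_Ligation and CVST_Ligation_4_PBA. Their groups overlapped, and edgeR called 0 of 10 in each comparison, where it called 9.64% of all genes in CVST_Ligation and 15.4% in CVST_Ligation_4_PBA against CVST and 3.23% between the ligated groups.

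Of the markers of dendritic cells, B cells and T cells, some were at or near 0 counts and others were not. Of 9 dendritic cell markers 4 were tested, and Clec9a had 0 counts in every brain and Xcr1 at most 4. The list summed to 21.5, 21.3 and 16.5 CPM in the CVST brains, 23.7, 65.6 and 24.4 CPM in the CVST_Ligation brains and 29.04, 24.3 and 29.8 CPM in the CVST_Ligation_4_PBA brains. Flt3, a cytokine receptor and the most abundant of them, stood at 10.1, 14.7 and 10.5 CPM, then 17.4, 50.5 and 15.6 CPM, then 22.5, 16.8 and 20.005 CPM and was higher in CVST_Ligation than in CVST (log2 fold change 1.24, SE 0.42, edgeR adjusted p = 0.405), a call lost without CVST_Ligation 2 (0.49), CVST 1 (1.13) or CVST 3 (1.15). Batf3, named after its values were seen, was called lower there (-1.88), a call lost without CVST 1 (-1.83), CVST 3 (-1.78), CVST_Ligation 2 (-1.46) or CVST_Ligation 3 (-2.03), and edgeR called 0 of 4 in the other comparisons. Of all genes, 5.47% were called higher and 4.18% lower in CVST_Ligation than in CVST, and 3.23% and 15.4% were called either way in CVST_Ligation_4_PBA against CVST_Ligation and against CVST, so that 0 of 4 is near that background. Of 12 B cell markers 4 were tested, and Ms4a1 had at most 1 count in a brain. The list, led per length by Ighm, summed to 70.5, 85.1 and 37.8 CPM, then 20.1, 39.5 and 22.02 CPM, then 16.3, 21.5 and 22.5 CPM. Ighm, the heavy chain of immunoglobulin M, reached 1865 counts in a brain and was lower than in CVST in both ligated groups (log2 fold change -1.37, SE 0.35, edgeR adjusted p = 0.294 in CVST_Ligation and log2 fold change -1.78, SE 0.35, edgeR adjusted p = 0.0621 in CVST_Ligation_4_PBA) in every alternative run, and no other B cell marker was called.

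Of 14 T cell and natural killer cell markers 4 were tested, and Cd3e had at most 4 counts in a brain and Cd8a at most 1. The list, led per length by Trbc2, summed to 28.9, 34.7 and 15.4 CPM in the CVST brains, 6.82, 10.6 and 9.41 CPM in the CVST_Ligation brains and 6.50, 14.2 and 10.9 CPM in the CVST_Ligation_4_PBA brains. Trbc2, a constant region of the T cell receptor, was lower than in CVST in both ligated groups (log2 fold change -2.36, SE 0.60, edgeR adjusted p = 0.294 in CVST_Ligation and log2 fold change -3.43, SE 0.64, edgeR adjusted p = 0.0545 in CVST_Ligation_4_PBA) in every alternative that gave a value. Trbc2 reached 480 counts in a brain, Cd4 248, Trac 136 and Lck 87, the last 3 named after their values were seen. Cd4 was lower in CVST_Ligation than in CVST (-4.43) in every alternative that gave a value. It was higher in CVST_Ligation_4_PBA than in CVST_Ligation (3.08), a call lost without CVST_Ligation_4_PBA 2 (1.46) and with limma on log2(FPKM + 1) (1.06). Lck was higher in CVST_Ligation_4_PBA than in CVST (1.13), a call lost without CVST 2 (0.90) or CVST_Ligation_4_PBA 2 (0.78). Trac was not called, with 1.48 ± 0.534 CPM in the CVST group, 2.97 ± 1.80 CPM in the CVST_Ligation group and 2.98 ± 1.92 CPM in the CVST_Ligation_4_PBA group (mean ± SD, n = 3). Of 9 monocyte markers, led per length by Ccl9 and summing to 3.61 to 19.7 CPM, 5 were tested and Itga4 was called higher in CVST_Ligation than in CVST (log2 fold change 1.92, SE 0.68, edgeR adjusted p = 0.419), a call lost without CVST 1 (1.68) or CVST_Ligation 1 (0.96) and with limma (0.80 and 1.37). Of 12 neutrophil markers, led per length by Lcn2 and summing to 10.6 to 51.3 CPM, 6 were tested and edgeR called 0 in each comparison, which is near the share of all genes called, 9.64% in CVST_Ligation and 15.4% in CVST_Ligation_4_PBA against CVST and 3.23% between the ligated groups. Of 8 leukocyte markers, led per length by Coro1a and summing to 236, 301 and 303 CPM, then 199, 174 and 207 CPM, then 156, 190.2 and 241 CPM, 2 were lower in CVST_Ligation and 2 in CVST_Ligation_4_PBA than in CVST, where 4.18% and 7.33% of all genes were. Coro1a, which binds actin in leukocytes, was lower in CVST_Ligation_4_PBA (log2 fold change -0.78, SE 0.22, edgeR adjusted p = 0.150) in every alternative run and in CVST_Ligation (log2 fold change -0.59, SE 0.22, edgeR adjusted p = 0.438), a call lost without CVST 3 (-0.41) or CVST_Ligation 2 (-0.41). The others, named after their values were seen, were Spi1 in CVST_Ligation (-0.81) and Rac2 in CVST_Ligation_4_PBA (-0.89). The call of Spi1 was lost without CVST 2 (-0.73), CVST 3 (-0.80), CVST_Ligation 1 (-0.80) or CVST_Ligation 3 (-0.80), and that of Rac2 without CVST 2 (-0.81), CVST_Ligation_4_PBA 1 (-0.61) or CVST_Ligation_4_PBA 2 (-0.77).

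Markers of the brain borders differed between single brains. The 9 markers of meninges and fibroblasts, led per length by Dcn, summed to 128, 162 and 148 CPM in the CVST brains, 221, 319 and 125 CPM in the CVST_Ligation brains and 199, 420.2 and 160.5 CPM in the CVST_Ligation_4_PBA brains. CVST_Ligation_4_PBA 2 and CVST_Ligation 2, the highest brains here, were also the highest for class II members. Lum, a matrix proteoglycan, stood at 2.21, 4.74 and 2.66 CPM, then 5.70, 5.67 and 2.51 CPM, then 5.20, 19.8 and 6.67 CPM and was the only gene of the list called, higher in CVST_Ligation_4_PBA than in CVST (log2 fold change 1.72, SE 0.56, edgeR adjusted p = 0.192), a call lost without CVST_Ligation_4_PBA 2 (0.89). The 10 choroid plexus markers, led per length by Ttr, summed to 841, 796 and 989 CPM, then 102, 22.1 and 866 CPM, then 3157, 684 and 453 CPM. In this sum CVST_Ligation_4_PBA 1 was highest and CVST_Ligation 2 lowest, an order unlike that of class II. Ttr had 156856 counts over all brains and Kl, the next of the list, 3168. The order of the sum is therefore mainly that of Ttr and need not hold for the other markers. Of the 10 markers 1 was called higher between CVST_Ligation and CVST, 6 between CVST_Ligation_4_PBA and CVST_Ligation and 5 between CVST_Ligation_4_PBA and CVST, where 5.47%, 1.81% and 8.07% of all genes were higher. Between CVST_Ligation and CVST, 3 of the 10 log2 fold changes were above 0, with a list median of -0.69. The count of 1 was 0 without any 1 CVST brain, without CVST_Ligation 2 and with limma on log2(FPKM + 1), and the count of 5 was 3 without CVST_Ligation_4_PBA 1. Otx2, a transcription factor of the choroid plexus, was higher in CVST_Ligation_4_PBA than in CVST (log2 fold change 2.61, SE 0.49, edgeR adjusted p = 0.0545) in every alternative run. The 12 endothelial markers, led per length by Ly6a, summed to 377 to 650.2 CPM, and edgeR called 0 in each comparison, where it called 9.64%, 3.23% and 15.4% of all genes either way in that order of comparisons. The 9 mural cell markers, led per length by Vtn, summed to 269, 319 and 226 CPM, then 316, 465 and 251 CPM, then 413, 410.2 and 311 CPM. Of them 2 were called higher in CVST_Ligation and 3 in CVST_Ligation_4_PBA than in CVST, where 5.47% and 8.07% of all genes were. The count of 2 was 0 without CVST_Ligation 2 and 1 without CVST 1 or 3. The part of border tissue and vessels in the class II levels was not tested.

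The 9 oligodendrocyte markers, led per length by Mbp, a myelin protein, summed to 2639, 3182 and 3484 CPM in the CVST brains, 2663, 5961 and 4293 CPM in the CVST_Ligation brains and 7498, 5219 and 4705 CPM in the CVST_Ligation_4_PBA brains. As for class II members, each CVST_Ligation_4_PBA brain was above each CVST brain and CVST_Ligation 2 was the highest CVST_Ligation brain, while the highest brain of all was CVST_Ligation_4_PBA 1. Of the 9, 7 were called higher in CVST_Ligation_4_PBA than in CVST, where 8.07% of all genes were, and the count was 3 without CVST_Ligation_4_PBA 1. In CVST_Ligation, 1 of 9 was called higher than in CVST, where 5.47% of all genes were, a count of 5 without CVST_Ligation 1 and 0 without CVST_Ligation 2 or CVST 1. In CVST_Ligation_4_PBA, 1 of 9 was called higher than in CVST_Ligation, where 1.81% of all genes were, a count of 7 without CVST_Ligation 2 and 0 without any 1 of CVST 2 and 3, CVST_Ligation 1 and 3 and CVST_Ligation_4_PBA 1 and 3. That count was 2 with either limma fit and 0 in a model of only these groups. The part of these cells in the class II levels was not tested.

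**Figure D3:**
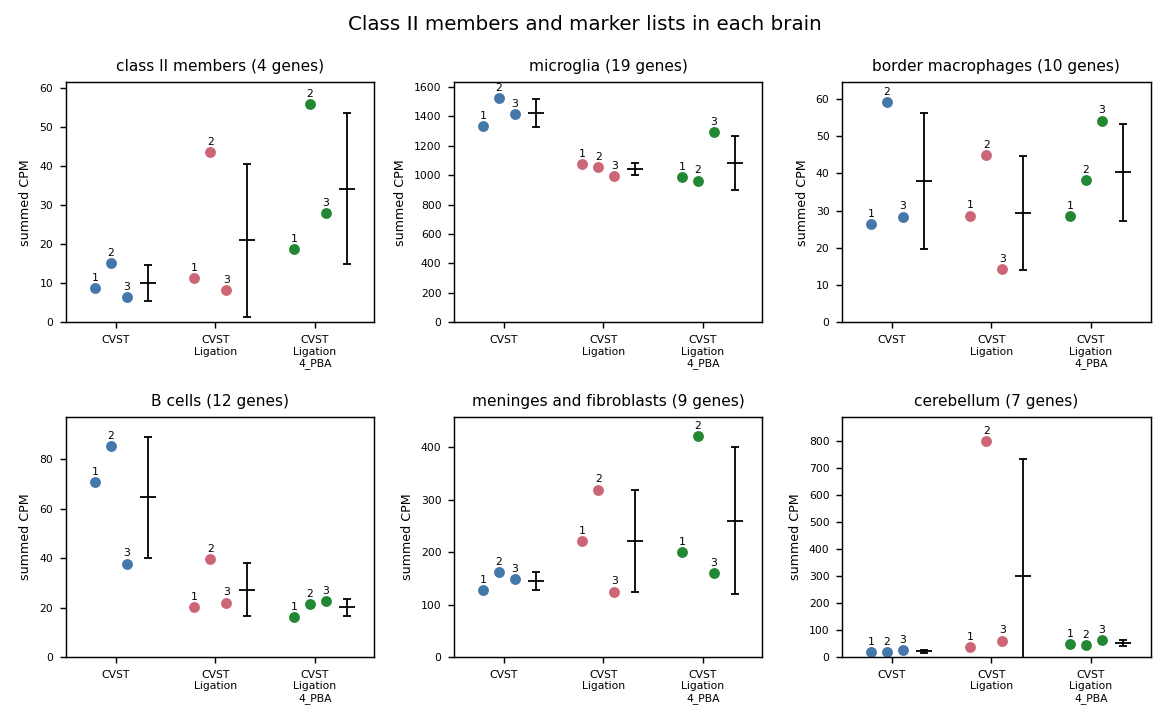
Summed CPM of the class II members and of 5 marker lists in each brain by group, on axes from 0; points are single brains numbered by replicate and bars are the mean with the SD over 3 brains, bars that would pass below 0 ending at the axis. CVST_Ligation_4_PBA 2 and CVST_Ligation 2 are highest for class II members and for meninges and fibroblasts, and for microglia the 6 ligated brains lie below the CVST brains.

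On the GRCm38 assembly, 8 of the 10 members lie within 1351601 bases of chromosome 17. In order they are Tapbp (33915899-33929292, plus strand), H2-K1 (33996017-34000347, minus strand), Tap1 (34187553-34197225, plus strand), Tap2 (34203527-34216321, plus strand), H2-Ab1 (34257689-34269419, plus strand), H2-Aa (34282744-34287823, minus strand), H2-Eb1 (34305867-34316674, plus strand) and H2-D1 (35262730-35267499, plus strand). Tap1 and Tap2 come just before the class II genes in this order, and neither was called in any comparison. Exons of Tapbp overlap those of Zbtb22 over 149 bases on the same strand, so reads there are uncertain. B2m lies on chromosome 2 and Cd74 on another chromosome.

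Promoters are shown because class II members varied together and class I members less so. RefSeq promoter sequences on the build GRCm38.p6 were found for 7 of the 10 members, and the 200 bases before the start of 5 of them are printed 5′ to 3′ on the strand of the gene. The RefSeq starts used for H2-D1 and Tapbp lie inside the spans that GENCODE M21 gives these genes, and so do their windows. Capitals mark matches on either strand to any of 4 motifs. GGGGATTCC, letters of a kappa B element, occurs in 0.155% of 32843 promoters of this length, and GAANNGAAA, letters of an interferon response element, in 5%. TGACG, letters like a part of the X box and not the whole of it, occurs in 15.7%, and CCAAT, the Y box, in 29.4%.
H2-K1, chr17:34000348-34000547, minus strand: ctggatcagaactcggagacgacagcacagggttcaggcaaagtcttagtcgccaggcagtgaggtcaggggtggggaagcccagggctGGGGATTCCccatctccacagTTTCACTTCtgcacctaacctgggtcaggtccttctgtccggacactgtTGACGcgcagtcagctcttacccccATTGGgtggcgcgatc
H2-D1, chr17:35262894-35263093, plus strand: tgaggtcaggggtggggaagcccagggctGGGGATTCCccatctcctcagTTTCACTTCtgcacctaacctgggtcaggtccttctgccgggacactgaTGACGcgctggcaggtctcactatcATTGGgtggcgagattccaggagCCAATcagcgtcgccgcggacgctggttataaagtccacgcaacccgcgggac
B2m, chr2:122147487-122147686, plus strand: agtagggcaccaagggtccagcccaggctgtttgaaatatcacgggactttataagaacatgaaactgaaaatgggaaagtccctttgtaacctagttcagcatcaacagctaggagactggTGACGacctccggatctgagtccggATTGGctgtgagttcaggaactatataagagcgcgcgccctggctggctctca
H2-Aa, chr17:34287824-34288023, minus strand: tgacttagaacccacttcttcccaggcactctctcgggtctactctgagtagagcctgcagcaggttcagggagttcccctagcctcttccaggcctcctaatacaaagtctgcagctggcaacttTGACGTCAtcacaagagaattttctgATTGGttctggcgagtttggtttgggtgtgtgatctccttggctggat
H2-Eb1, chr17:34305667-34305866, plus strand: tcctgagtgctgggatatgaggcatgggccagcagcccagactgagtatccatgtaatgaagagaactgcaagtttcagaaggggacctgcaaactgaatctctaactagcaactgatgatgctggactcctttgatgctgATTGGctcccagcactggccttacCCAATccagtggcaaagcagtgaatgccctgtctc
H2-K1 and H2-D1 held all 4 motifs, in the order kappa B, interferon response, X box and Y box towards the start. The window of another H2-K1 start, 34000334-34000533, is not printed and also held all 4, with CCAAT at 2 places. B2m and H2-Aa held TGACG and, nearer the start, CCAAT, and in H2-Aa the pair of matches to TGACG overlap. H2-Eb1 held CCAAT at 2 places and no match to the letters of the other motifs. Whether it holds an X box in other letters was not tested. Of the windows not printed, that of Tap1 held only TGACG and that of Tapbp only CCAAT. GGGGATTCC and GAANNGAAA had no match in the windows of B2m, Tap1, Tapbp, H2-Aa and H2-Eb1. Only these exact letters were searched, so the lack of a match does not show that an element is absent. The B2m window, for example, holds gaaactgaaa, a near form that GAANNGAAA does not match. A match is a description of letters, not a site or a cause.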

How the data were processed

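Brain RNA of 9 mice, 3 per group, was sequenced. The submitters' processing notes name fastp, HISAT2, StringTie and RSEM and the GRCm38 build. The methods add that HISAT2 ran in an orientation mode and that RSEM estimated abundance. Versions, how the deposited counts were made and whether they used strand are not given in the sources used here. The authors deposited counts, whole numbers of reads per gene symbol, with no normalization. The FPKM values the authors deposited equal these counts over library total and a length per gene. Library totals were 18100739 to 25091498. Floors cover counting error only, and the intervals come from the edgeR fit.

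Samples were grouped by their labels, which do not say more on how mice were matched. R 4.3.3 and edgeR 4.0.16 (TMM, filterByExpr, quasi-likelihood test, Benjamini-Hochberg over 14746 genes) fitted all 9 libraries at once without covariates. The methods name no tool for this step. Chi-square over degrees of freedom was at least 24.2 for each pair of the 9 libraries, so no library repeats another. Alternatives were DESeq2 size factors or total counts as scaling, DESeq2 1.42.0, every gene with 1 or more counts, genes with 10 or more counts in all libraries, a model of only the groups compared, the replicate number as a block, limma 3.58.1 on log2(FPKM + 1) or log2(FPKM + 0.1), and single libraries left out. The procedure was tested on simulated data, and no result given here rests on that test. Positions and transcripts came from GENCODE M21, and motifs were searched on both strands.

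Genes named are the members, the gene of each list with most FPKM, up to 2 genes of a pathway list with the smallest p below 0.05 in each comparison, at most 1 such gene of a cell list, and 5 genes most similar to each class score. H2-Ea, Ifng, Clec9a, Xcr1, Ms4a1, Cd3e and Cd8a, at or near 0 counts, and those marked so in the text were named after their values were seen, and H2-Q1 and Zbtb22 only for sequence or exons shared with members. Some genes of the lists are not reported here. The members and lists were chosen with earlier results of these data known.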

Additional observations from a re-analysis of the deposited data

How the results depend on the processing

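At an adjusted p below 0.05, the 3 genes called between CVST_Ligation and CVST by edgeR (quasi-likelihood test, Benjamini-Hochberg) became 264 with DESeq2, 0 with at least 10 counts in every library, 13 with limma on log2(FPKM + 0.1) and 1 with only the 2 groups compared. Between CVST_Ligation_4_PBA and CVST_Ligation, 0 became 22 with DESeq2 and 2 with limma on log2(FPKM + 1). Between CVST_Ligation_4_PBA and CVST, 18 became 855 with DESeq2, 112 with every gene of at least 1 count, 6 with at least 10 counts, 87 and 134 with limma, and 234 with only the 2 groups compared. DESeq2 called 1 member there after adjustment, and 1 class II member between CVST_Ligation and CVST before it. H2-D1 between CVST_Ligation and CVST was at -0.01 and -0.01 with limma. B2m between CVST_Ligation_4_PBA and CVST was at 0.04 with total counts and at 0.03 and 0.03 with limma. The cause was not tested. With at least 10 counts in every library, 2 midbrain markers were called in each ligated group against CVST. Several of the markers cannot pass that filter, having at most 3 counts in 1 or more libraries, so this is not a loss of calls among tested genes. Scaling by total counts moved the share of called genes that were higher from 56.7% to 65.4% between CVST_Ligation and CVST, from 56.1% to 66.1% between CVST_Ligation_4_PBA and CVST_Ligation and from 52.4% to 65.1% between CVST_Ligation_4_PBA and CVST. With limma on log2(FPKM + 1) the share was 59.9%, 72.4% and 65% in the same order of comparisons.

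A replicate block in the edgeR model put 1 gene past an adjusted p of 0.05 between CVST_Ligation and CVST and 1 between CVST_Ligation_4_PBA and CVST_Ligation. At an unadjusted p the block called 1 class I member (B2m) and 1 class II member (Cd74) in the former, 2 class II members (Cd74 and H2-Aa) in the latter and 4 between CVST_Ligation_4_PBA and CVST. Of all 14746 genes the block called 1765, 521 and 2644 in the same order of comparisons. H2-D1 between CVST_Ligation and CVST was then at -0.03, and H2-Q2 (1.44), Gbp3 (-0.65) and Itga4 (1.53) were not called there. Interferon response genes called higher between CVST_Ligation_4_PBA and CVST_Ligation numbered 5 with the block. Deviations of libraries with the same number correlated at r of -0.05 to 0.32 over 9 pairs, of which 3 were over 0.1. Since not every pair was over 0.1, the number was not taken to pair the libraries.

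With 1 library left out, genes called between CVST_Ligation and CVST numbered 1206 to 1661 at an unadjusted and 0 to 7 at an adjusted p, with 0 to 2 class II members. Class medians were -0.36 to 0.23 for class I and -0.23 to 1.45 for class II. Log2 fold changes ran from -0.28 to 0.20 for H2-K1, -0.48 to 0.34 for H2-D1, -0.41 to 0.08 for Tap1, -0.24 to 0.30 for Tap2, -0.33 to 0.30 for Tapbp, -0.38 to 1.33 for H2-Aa, -0.38 to 1.57 for H2-Ab1 and -0.08 to 1.45 for H2-Eb1. Between CVST_Ligation_4_PBA and CVST_Ligation the counts were 256 to 1497 genes unadjusted, 0 to 2 adjusted, 0 to 3 class I and 0 to 4 class II members. The medians were 0.04 to 0.56 for class I and 0.15 to 1.83 for class II, and log2 fold changes -0.12 to 0.70 for H2-D1, -0.31 to 0.35 for Tap1 and -0.13 to 0.50 for Tapbp. Between CVST_Ligation_4_PBA and CVST the counts were 1517 to 2861 genes unadjusted, 2 to 541 adjusted and 0 to 4 class II members. The class II median there kept its sign at 1.20 to 2.26. Log2 fold changes ran from -0.14 to 0.10 for B2m and -0.53 to 0.18 for Tap1. Leaving out libraries for the counts of list genes, the correlations and the ranges within groups was chosen after seeing the data. With 3 brains per group, the intervals given leave room for differences that were not called.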
